A study of Homo sapiens with 12 samples.

Results

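Integrin subunits and laminin chains, the receptors and ligands through which epithelial cells hold on to the basement membrane, were followed across HCT116 colorectal cancer cells and 2 isogenic lines derived from them. The genes were chosen by name, from a list of 31 genes with 21 integrin subunits and 10 laminin chains, with earlier results of these data known. Of the 54675 probe sets on each array, 81 named 1 of these genes and no other gene, and they gave a value for 29 of the 31 genes (20 integrin subunits and 9 laminin chains). ITGB6 was named only on probe sets that also name another gene and therefore has no value here, and LAMA3 was not analysed here. The brightest of a gene's probe sets, by its mean over the 12 arrays, stood for the gene, and 22 of the 29 genes had a mean log2 value of 6 or more in at least 1 group and entered the tests, against 12852 of 19775 genes in the whole series.

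HCT116 carries an oncogenic RAS allele, and in Hke3 and Hkh-2 that allele was targeted through homologous recombination. The groups were HCT116 control cells given 25 ng/ml doxycycline, HCT116 control cells given vehicle, Hke3 and Hkh-2, with 3 arrays in each. The HCT116 control groups were harvested on day 3 and the recombined lines were cultured under basal conditions. The study's text describes the mutant allele of the recombined lines as deleted in one place and as replaced by the wild-type allele in another. Each recombined line is a single clone, so a difference between a line and HCT116 cannot be told apart from a difference that its founding cell already carried, and it was not settled whether the HCT116 control arrays come from the parental line or from a line with a control hairpin. Below, the doxycycline arrays and the vehicle arrays are those of HCT116 control cells, and every difference between HCT116 and a recombined line is taken from the vehicle arrays. Whether the 3 arrays of a group represent separate cultures is not given in the sources used here, and p-values measure the spread between these arrays, which may be technical.

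Integrins are heterodimers of an alpha and a beta subunit that span the plasma membrane, bind matrix proteins outside the cell and connect them through talin, kindlin and other adaptors to the actin cytoskeleton. Laminins are cross-shaped trimers of an alpha, a beta and a gamma chain, secreted into the basement membrane that lies under the intestinal epithelium. The alpha3beta1, alpha6beta1 and alpha6beta4 integrins are the main laminin receptors of epithelial cells, and alpha6beta4 anchors hemidesmosomes, which attach to keratin filaments and not to actin. Integrins that contain the alphav subunit recognise the RGD motif of fibronectin, vitronectin and latent TGF-beta, and alphavbeta6 and alphavbeta8 are known for activating latent TGF-beta.

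The arrays were alike in overall scale, with medians between 5.80 and 5.86 on the log2 scale and correlations between 0.993 and 0.998 within groups. Vehicle replicate 2 and Hke3 replicate 3 lay farthest from their own group means, with root mean square deviations of 0.179 and 0.198 against 0.0805 to 0.124 for the other 10 arrays, and their deviations correlated across genes (r = 0.683, genes not being independent replicates). The 5′ minus 3′ difference of the actin control probe sets also moved with the groups, at between -0.94 and -0.71 in the doxycycline arrays, between -0.85 and -0.48 in the vehicle arrays, between -0.58 and -0.23 in Hke3 and between -0.32 and -0.23 in Hkh-2, while that of the GAPDH control lay between -0.03 and 0.11 in every array. The part of these array differences in the results below was not tested. Of 10 markers of colon epithelial cells, 9 had a group mean of 6 or more, with EPCAM, the epithelial adhesion molecule, at 13.09 in the doxycycline arrays, 13.09 in the vehicle arrays, 13.25 in Hke3 and 13.16 in Hkh-2. The mean level over these 10 markers was between 9.63 and 9.64 in the doxycycline arrays, between 9.64 and 9.68 in the vehicle arrays, between 9.60 and 9.83 in Hke3 and between 10.13 and 10.18 in Hkh-2. KRT20, a keratin of differentiated colon cells, had means of 6.62 in the doxycycline arrays, 6.64 in the vehicle arrays, 6.86 in Hke3 and 8.86 in Hkh-2, and CDH1, which encodes E-cadherin, had means of 11.14, 11.07, 11.90 and 12.24 in the same order. In the vehicle arrays, Hke3 and Hkh-2, the means were 12.79, 12.59 and 13.39 for KRT8 and 14.21, 14.01 and 14.54 for KRT18. They were 12.97, 13.49 and 13.60 for KRT19 and 7.39, 7.14 and 7.30 for CDX1. CDX2 had 6.89, 6.45 and 6.88, and VIL1 had 6.48, 6.45 and 6.57. LGALS4 stayed under 6 in every group (4.83 to 5.05). The mean over all 10 markers was highest in Hkh-2, though single markers differed in direction, and its part in the results was not tested.

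Of the 29 genes with a value, 7 stayed under a mean of 6 in every group and are called near background. They were the alpha subunits ITGA1, with single arrays between 4.02 and 4.56, ITGA4 (3.57 to 4.32), ITGA8 (5.53 to 5.97), ITGA9 (4.85 to 5.50) and ITGA10 (5.44 to 5.78), and the laminin alpha chains LAMA1 (5.09 to 5.50) and LAMA4 (5.49 to 5.86). Another 5 genes lay just above that limit, with group means of 6.17 to 6.38 for ITGA7, 6.25 to 6.39 for ITGA11, 6.23 to 6.42 for ITGB2, 6.18 to 6.41 for ITGB3 and 6.53 to 6.71 for ITGB7, and none of these 5 was called in any comparison. ITGA4, ITGB2, ITGB7 and ITGAE are best known from leukocytes, of whose 6 listed markers 5 were measured and 1 reached a group mean of 6 (CD3E, a T cell receptor component, at 6.04 to 6.18), and PTPRC, the pan-leukocyte marker CD45, lay between 3.80 and 3.94. The other 17 genes, among them ITGAE with group means of 11.04 or more, had a mean of 6 or more in all 4 groups. Because a probe set's brightness depends on its own probes, the levels of different genes were not set against each other.

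**Figure D1:**
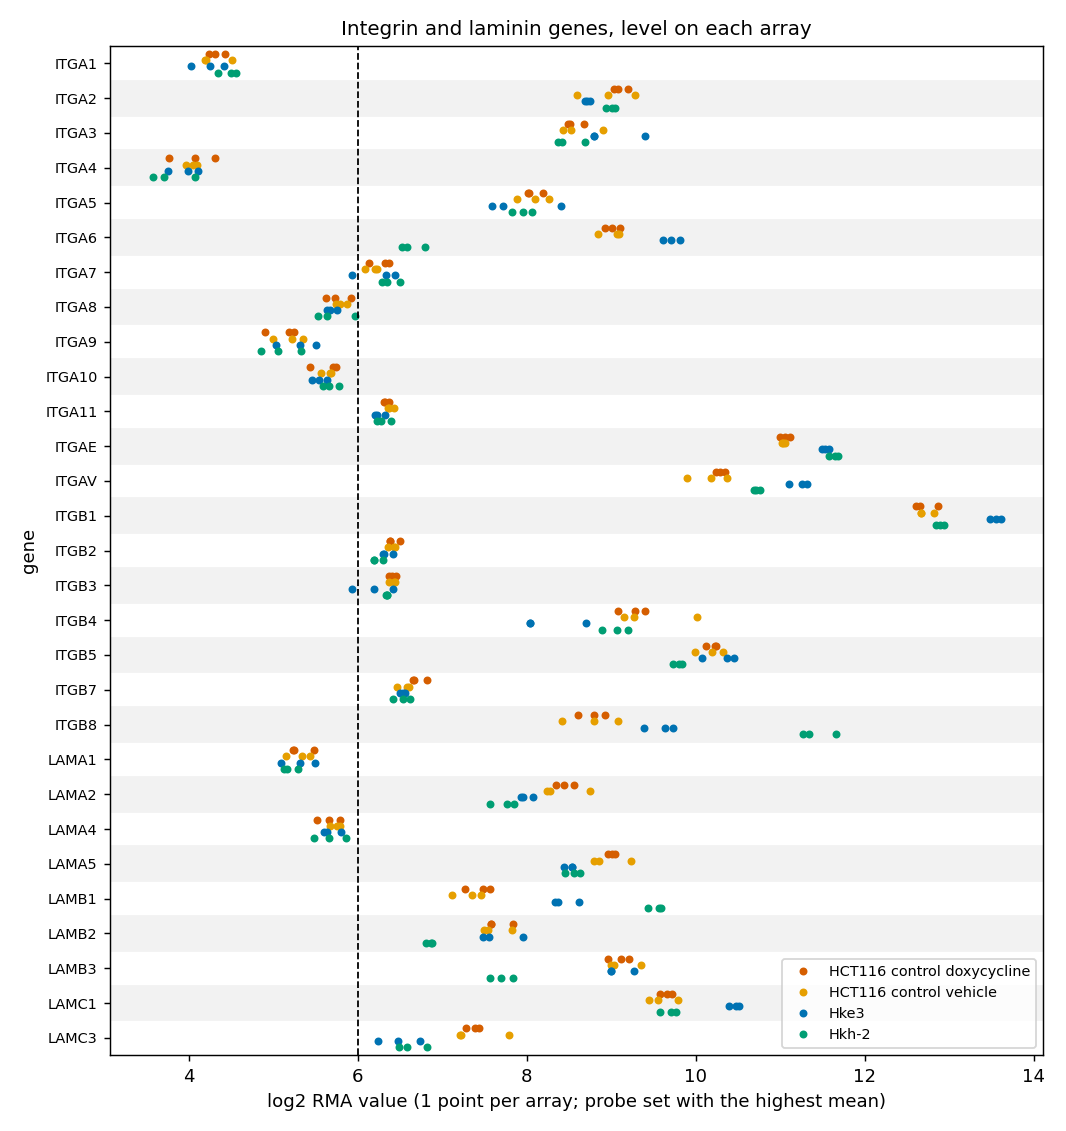
Log2 RMA value (horizontal axis) of the 29 integrin and laminin genes with a probe set of their own (rows), 1 point per array and 3 arrays per group, with HCT116 control doxycycline, HCT116 control vehicle, Hke3 and Hkh-2 in different colours and a dashed line at 6, the limit for near background. The 7 near-background genes lie left of the line in every group, while the points of ITGA6, ITGAV, ITGB8 and LAMB1 separate into HCT116, Hke3 and Hkh-2.

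Doxycycline and vehicle arrays gave close values for these genes. In the limma comparison of doxycycline with vehicle, 0 of the 22 tested genes were called higher and 0 lower at an adjusted p under 0.05, as 0% of all genes tested were called higher and 0% lower, and every adjusted p was 1. Their log2 fold changes lay between -0.22 (ITGB4) and 0.16 (ITGA2 and ITGB7), with a median absolute value of 0.0388 against 0.0536 over all genes tested. At an unadjusted p under 0.05, 0 of the 22 genes and 127 of 12852 genes in all would have passed. The exact permutation test of a single gene, with 3 arrays against 3, cannot give a p below 0.1.

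Integrin and laminin genes differed between HCT116 and each recombined line, in both directions. Against Hke3, the limma fit called 4 of the 22 tested genes higher in HCT116 (18.2%) and 7 lower (31.8%), where 24.6% of all 12852 genes were called higher and 23.2% lower. Against Hkh-2, 7 were higher in HCT116 (31.8%) and 4 lower (18.2%), where 14.3% of all genes were higher and 21.7% lower. The shares of calls were therefore not far from those of all genes against Hke3, and more of these genes than of all genes were higher against Hkh-2, with no test made of the list as a whole. In RNA from whole cultures, fewer cells with a transcript and less of it per cell cannot be told apart. Without vehicle replicate 2 and Hke3 replicate 3, 8 genes were called higher and 8 lower in the comparison with Hke3, and 7 higher and 4 lower in that with Hkh-2. Calls over all genes rose as well. Against Hke3, 3829 of 12854 genes were then higher and 3176 lower, instead of 3159 and 2987 of 12852. Against Hkh-2, 2479 were higher and 3654 lower, instead of 1842 and 2785. The size of the changes, whatever their direction, had a median of 0.41 in log2 units for Hke3 and 0.40 for Hkh-2, compared with 0.25 and 0.19 over all genes, and the signed medians were -0.01 and 0.11, compared with 0.04 and -0.02 over all genes.

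Of the 15 tested integrin subunits, 1 was called higher (6.67%) and 5 lower (33.3%) in HCT116 when Hke3 was the line compared. When it was Hkh-2, 2 were higher (13.3%) and 3 lower (20%). Of the 7 tested laminin chains, 3 were called higher (42.9%) and 2 lower (28.6%) in the comparison with Hke3. In that with Hkh-2, 5 were higher (71.4%) and 1 lower (14.3%). Over all genes, 24.6% were higher and 23.2% lower against Hke3, and 14.3% and 21.7% against Hkh-2. The 2 comparisons use the same vehicle arrays, so they are set side by side and not counted as support for each other. LAMA2, LAMA5 and LAMC3 were higher in HCT116 than in both lines, ITGAE, ITGAV, ITGB8 and LAMB1 were lower than in both, and ITGA6 was lower than in Hke3 and higher than in Hkh-2. ITGB4 (higher), ITGB1 and LAMC1 (lower) were called against Hke3 alone, and ITGB5, LAMB2 and LAMB3 (higher) against Hkh-2 alone. The remaining 8 genes, ITGA2, ITGA3, ITGA5, ITGA7, ITGA11, ITGB2, ITGB3 and ITGB7, were called in neither comparison.

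**Figure D2:**
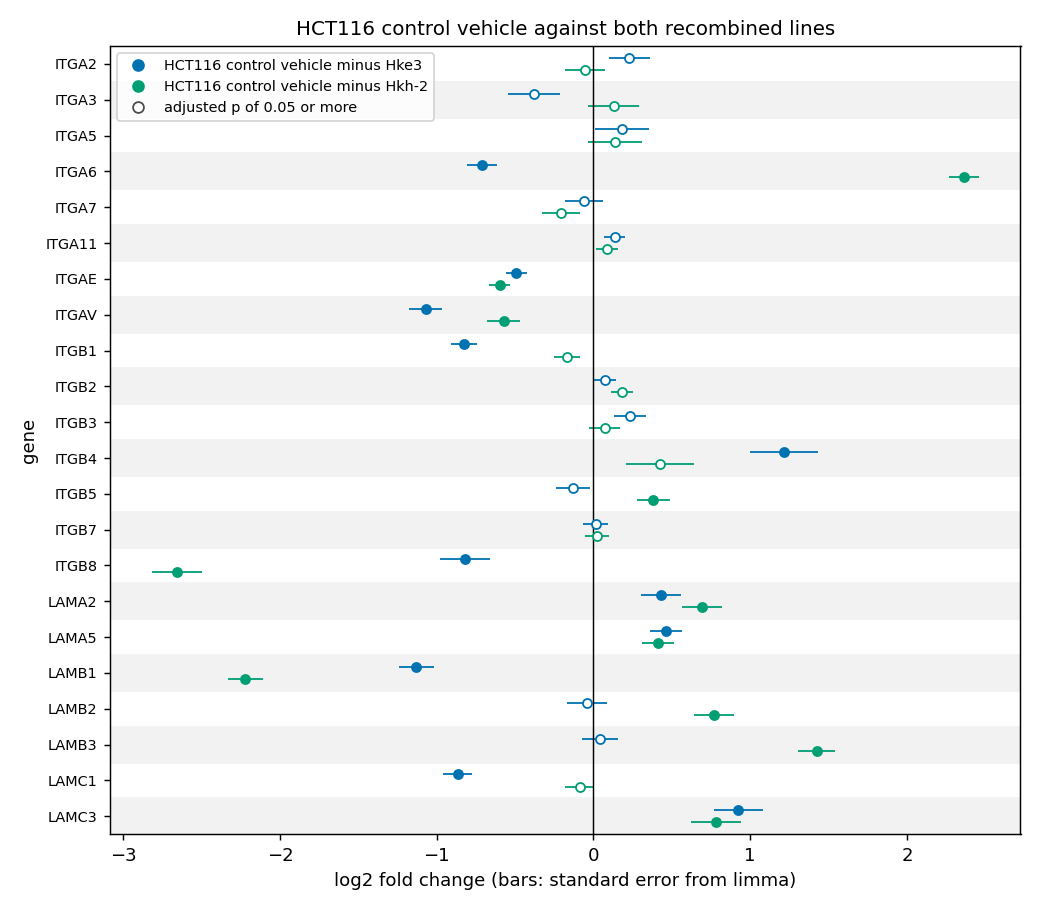
Log2 fold change (horizontal axis) of HCT116 control vehicle minus Hke3 and of HCT116 control vehicle minus Hkh-2 for the 22 tested genes (rows), with bars for the standard error from limma and open points for an adjusted p of 0.05 or more. ITGA6 lies at -0.71 against Hke3 and at 2.36 against Hkh-2, ITGB8 at -0.82 and -2.66, and LAMB1 at -1.13 and -2.22.

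The promoter windows of the 4 genes with the largest differences from Hkh-2 are shown because ITGB8 and LAMB1 were both highest in Hkh-2, while ITGA6 and LAMB3 were both lowest there. Each line gives the 250 bases before a start site listed by RefSeq for the GRCh38.p14 assembly, read 5′ to 3′ on the strand of the gene, at chr7:20330650-20330899 (plus strand, inside the annotated gene, whose first base lies further upstream) for ITGB8, chr7:108003162-108003411 (minus strand) for LAMB1, chr2:172427086-172427335 (plus strand, the more upstream of 2 listed starts) for ITGA6 and chr1:209652426-209652675 (minus strand, the most upstream of 3 listed starts) for LAMB3. Capitals mark matches on either strand to any of 4 motifs, which were TGANTCA for AP-1, CCGGAAGT for the ETS family, GGGCGG for SP1 and TATAAA for the box bound by the basal machinery.
ITGB8: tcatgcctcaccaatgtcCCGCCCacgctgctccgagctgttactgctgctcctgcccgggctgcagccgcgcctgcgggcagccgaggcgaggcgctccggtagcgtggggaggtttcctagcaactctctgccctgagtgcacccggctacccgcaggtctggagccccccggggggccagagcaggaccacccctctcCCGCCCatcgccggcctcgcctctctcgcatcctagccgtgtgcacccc
LAMB1: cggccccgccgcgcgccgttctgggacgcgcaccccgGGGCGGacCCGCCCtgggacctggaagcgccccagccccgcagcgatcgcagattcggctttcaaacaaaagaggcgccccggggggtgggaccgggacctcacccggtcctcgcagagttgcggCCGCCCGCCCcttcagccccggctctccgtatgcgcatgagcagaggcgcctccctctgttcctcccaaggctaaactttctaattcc
ITGA6: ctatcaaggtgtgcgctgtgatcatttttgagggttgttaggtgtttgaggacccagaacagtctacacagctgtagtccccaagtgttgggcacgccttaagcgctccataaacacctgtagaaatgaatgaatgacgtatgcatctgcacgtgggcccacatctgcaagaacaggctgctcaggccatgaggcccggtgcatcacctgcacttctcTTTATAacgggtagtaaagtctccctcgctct
LAMB3: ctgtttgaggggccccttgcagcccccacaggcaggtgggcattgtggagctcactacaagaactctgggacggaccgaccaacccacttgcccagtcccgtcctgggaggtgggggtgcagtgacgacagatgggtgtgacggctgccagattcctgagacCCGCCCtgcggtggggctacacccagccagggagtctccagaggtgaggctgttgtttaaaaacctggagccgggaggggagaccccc
The windows of ITGB8 and LAMB1 were rich in G and C (71.2% and 70.4%), as was that of LAMB3 (64%), while the window of ITGA6 had 50.8%. ITGB8 held 2 matches to the SP1 motif, starting at -232 and -49 from the start site, LAMB1 held 4, 2 of them overlapping, LAMB3 held 1 and ITGA6 held 1 TATAAA match, on the minus strand at -32. The SP1 motif was found in 42.6% of 35116 promoter windows of this length and in 16 of 30 windows of 23 genes of the list, the TATAAA motif in 10.7% and 2 of 30, the AP-1 motif in 6.57% and 2 of 30 and the ETS motif in 3.42% and 1 of 30. A match is a description of the letters and not a binding site.

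ITGA6, the laminin-binding alpha subunit that pairs with beta1 and with beta4, showed the largest difference between the recombined lines among the 22 tested genes. It lies on chromosome 2 at chr2:172427336-172506459. Its log2 values were 9.01, 8.92 and 9.10 in the doxycycline arrays, 9.07, 8.84 and 9.09 in the vehicle arrays, 9.61, 9.82 and 9.71 in Hke3 and 6.80, 6.59 and 6.52 in Hkh-2. All Hke3 arrays lay above those of HCT116 and all Hkh-2 arrays below them, so HCT116 stood between the lines with no overlap. ITGA6 was lower in HCT116 than in Hke3 (log2 fold change -0.71, SE 0.0972, adjusted p = 6.36e-05, limma) and 5.15-fold higher than in Hkh-2 (log2 fold change 2.36, SE 0.0972, adjusted p = 8.73e-10). Between the recombined lines ITGA6 was 8.43-fold higher in Hke3 than in Hkh-2 (adjusted p = 1.14e-10). The Hkh-2 mean of 6.64 lay little above 6, the limit for near background, so the fold values against Hkh-2 rest on a level close to that limit.

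ITGB4, the hemidesmosomal partner of ITGA6 with a long cytoplasmic tail that binds plectin, had another order. It lies at chr17:75721459-75757818, where its annotation overlaps GALK1. Its log2 values were 9.07, 9.28 and 9.40 in the doxycycline arrays, 9.15, 10.01 and 9.26 in the vehicle arrays, 8.04, 8.03 and 8.71 in Hke3 and 9.06, 9.20 and 8.89 in Hkh-2. Hke3 lay below all other arrays, and Hkh-2 overlapped HCT116. The arrays at 10.01 and 8.71 are those that lay farthest from their group means over all genes. ITGB4 was 2.32-fold higher in HCT116 than in Hke3 (log2 fold change 1.22, SE 0.218, adjusted p = 0.000555), and 1.17 on the log2 scale without those 2 arrays. It was not called against Hkh-2 (0.42, SE 0.218, adjusted p = 0.152). ITGA6 and ITGB4 thus ran in opposite directions in Hke3, where the alpha subunit was higher and the beta subunit lower than in HCT116.

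ITGAV and ITGB8, the subunits of the TGF-beta-activating receptor alphavbeta8, were both lower in HCT116 than in either recombined line, but the line with the highest value differed. ITGAV, at chr2:186590056-186680901, had log2 values of 10.28, 10.24 and 10.35 in the doxycycline arrays, 10.18, 9.89 and 10.37 in the vehicle arrays, 11.25, 11.31 and 11.10 in Hke3 and 10.76, 10.72 and 10.69 in Hkh-2, with no overlap between HCT116, Hke3 and Hkh-2. Its log2 fold change in HCT116 was -1.07 against Hke3 (SE 0.106, adjusted p = 3.78e-06) and -0.57 against Hkh-2 (SE 0.106, adjusted p = 0.000932). ITGB8, at chr7:20329766-20415754, had log2 values of 8.60, 8.79 and 8.92 in the doxycycline arrays, 8.80, 8.41 and 9.08 in the vehicle arrays, 9.72, 9.64 and 9.39 in Hke3 and 11.66, 11.27 and 11.34 in Hkh-2. Again the lines did not overlap, with HCT116 lowest and Hkh-2 highest. Its log2 fold change in HCT116 was -0.82 against Hke3 (SE 0.16, adjusted p = 0.00102) and -2.66 against Hkh-2 (SE 0.16, adjusted p = 3.74e-08), so that ITGB8 was 6.32-fold lower in HCT116 than in Hkh-2. ITGB5, another partner of ITGAV that binds vitronectin, went the other way against Hkh-2, with group means of 10.19 in the doxycycline arrays, 10.17 in the vehicle arrays, 10.30 in Hke3 and 9.79 in Hkh-2. ITGB5 was higher in HCT116 than in Hkh-2 by 0.38 (SE 0.107, adjusted p = 0.0134) and was not called against Hke3 (-0.13, adjusted p = 0.33), and without vehicle replicate 3 the difference from Hkh-2 was 0.30 with an adjusted p of 0.0599.

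**Figure D3:**
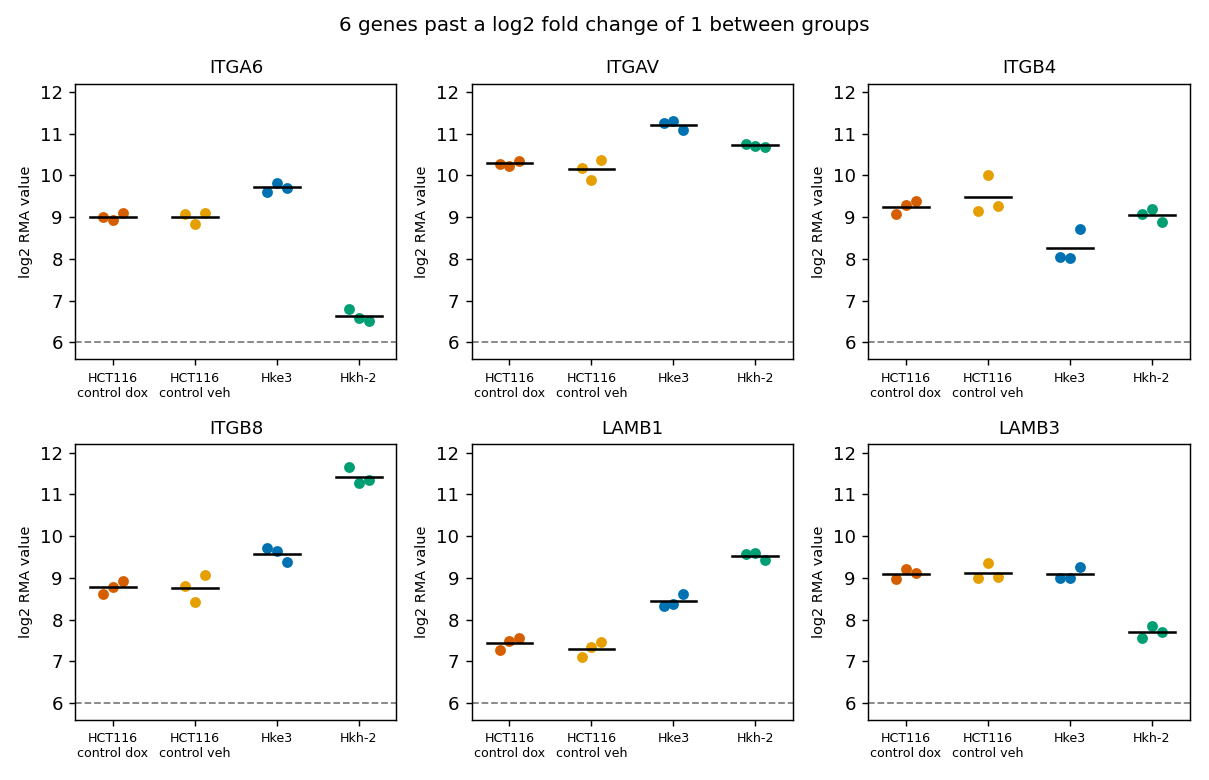
Log2 RMA value (vertical axis) of ITGA6, ITGAV, ITGB4, ITGB8, LAMB1 and LAMB3 in the 3 arrays of each group (points) with the group mean (bar), for HCT116 control doxycycline, HCT116 control vehicle, Hke3 and Hkh-2. ITGB8 and LAMB1 are highest in Hkh-2, with means of 11.42 and 9.53, while ITGA6 and LAMB3 are lowest there, with means of 6.64 and 7.70.

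ITGB1, the common beta subunit of most collagen, laminin and fibronectin receptors, was lower in HCT116 than in Hke3. Its log2 values were 12.61, 12.65 and 12.86 in the doxycycline arrays, 12.66, 12.67 and 12.82 in the vehicle arrays, 13.55, 13.61 and 13.48 in Hke3 and 12.93, 12.84 and 12.88 in Hkh-2. The Hke3 arrays lay above all others, and Hkh-2 overlapped the doxycycline arrays. The log2 fold change in HCT116 was -0.83 against Hke3 (SE 0.0825, adjusted p = 4.09e-06) and -0.17 against Hkh-2 (SE 0.0825, adjusted p = 0.13). Among the alpha subunits that pair with ITGB1, ITGA2, ITGA3 and ITGA5 were not called between HCT116 and either line. ITGA2, of the collagen receptor, had group means of 9.10 in the doxycycline arrays, 8.94 in the vehicle arrays, 8.71 in Hke3 and 9.00 in Hkh-2, and ITGA5, of the fibronectin receptor, had means of 8.08, 8.08, 7.90 and 7.94 in the same order. ITGA3, of the laminin receptor alpha3beta1, had means of 8.56, 8.62, 9.00 and 8.49 in that order, with a log2 fold change in HCT116 of -0.38 against Hke3 (SE 0.164, adjusted p = 0.0727). In Hke3, replicate 3 was the highest array for ITGA3 (9.40, against 8.80 and 8.79) and for ITGA5 (8.40, against 7.71 and 7.59). ITGAE, which pairs with beta7 on intraepithelial lymphocytes to bind E-cadherin, had group means of 11.05 in the doxycycline arrays, 11.04 in the vehicle arrays, 11.53 in Hke3 and 11.64 in Hkh-2. It was lower in HCT116 than in both lines (-0.49 on the log2 scale against Hke3, SE 0.066, adjusted p = 5.59e-05, and -0.60 against Hkh-2, SE 0.066, adjusted p = 1.27e-05), while its partner ITGB7 differed by 0.01 and 0.02. The annotation of ITGAE overlaps P2RX5 and HASPIN.

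Among the laminin chains, LAMB1 and LAMB3 changed by more than 1 on the log2 scale. LAMB1, the beta1 chain, which pairs with gamma1 in most epithelial laminins, lies at chr7:107923799-108003161 and had log2 values of 7.27, 7.48 and 7.56 in the doxycycline arrays, 7.12, 7.35 and 7.46 in the vehicle arrays, 8.33, 8.37 and 8.62 in Hke3 and 9.56, 9.59 and 9.44 in Hkh-2. The 3 lines did not overlap, with HCT116 lowest and Hkh-2 highest. Its log2 fold change in HCT116 was -1.13 against Hke3 (SE 0.11, adjusted p = 3.35e-06) and -2.22 against Hkh-2 (SE 0.11, adjusted p = 5.26e-09), or 2.19-fold and 4.66-fold lower. LAMB3, the beta3 chain of the epithelial laminin that hemidesmosomes bind through alpha6beta4, lies at chr1:209614870-209652425. It had log2 values of 8.97, 9.21 and 9.12 in the doxycycline arrays, 9.00, 9.35 and 9.03 in the vehicle arrays, 8.99, 8.99 and 9.26 in Hke3 and 7.56, 7.84 and 7.70 in Hkh-2. Hkh-2 lay below every other array, while Hke3 overlapped HCT116. LAMB3 was 2.68-fold higher in HCT116 than in Hkh-2 (log2 fold change 1.42, SE 0.116, adjusted p = 7.01e-07) and differed by 0.04 from Hke3 (SE 0.116, adjusted p = 0.796).

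The other laminin chains changed by less. LAMC1, the gamma1 chain shared by laminins with a beta1 or beta2 chain, had group means of 9.65 in the doxycycline arrays, 9.59 in the vehicle arrays, 10.46 in Hke3 and 9.68 in Hkh-2, and was called lower in HCT116 against Hke3 (-0.87, SE 0.0919, adjusted p = 7.16e-06) but not called against Hkh-2 (-0.09, adjusted p = 0.503). LAMB2, the beta2 chain, which can replace beta1 beside alpha5 and gamma1, had means of 7.66, 7.62, 7.66 and 6.85 in the same order, and was higher in HCT116 than in Hkh-2 (0.77, SE 0.127, adjusted p = 0.00039) but not called against Hke3 (-0.04, adjusted p = 0.811). In Hkh-2 the 2 beta chains LAMB2 and LAMB3 were thus lower and LAMB1 higher than in HCT116. LAMA5, the alpha5 chain of the main laminins under the intestinal surface epithelium, had means of 9.00, 8.96, 8.50 and 8.55, and was higher in HCT116 than in both lines (0.46 against Hke3, adjusted p = 0.00245, and 0.41 against Hkh-2, adjusted p = 0.00671). LAMA2, the alpha2 chain best known from muscle, had means of 8.45, 8.42, 7.99 and 7.73, and was higher in HCT116 by 0.43 against Hke3 (adjusted p = 0.013) and by 0.69 against Hkh-2 (adjusted p = 0.000817). Without vehicle replicate 1 the LAMA2 difference from Hke3 was 0.27 with an adjusted p of 0.0503. LAMC3, the gamma3 chain, had means of 7.37, 7.41, 6.48 and 6.63, and was higher in HCT116 by 0.92 against Hke3 (SE 0.158, adjusted p = 0.000396) and by 0.78 against Hkh-2 (SE 0.158, adjusted p = 0.00178). Its means in both recombined lines lay little above 6. The other LAMC3 probe set was near background in every group (means of 5.38 to 5.48) and was not tested. LAMA5 and LAMC3 overlapped between Hke3 and Hkh-2 but not between HCT116 and either line.

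Chains that assemble into 1 complex are set side by side here. For the laminin of the alpha5, beta1 and gamma1 chains, LAMA5 was higher in HCT116 than in both lines, LAMB1 was lower than in both, and LAMC1 was lower than in Hke3 alone. For alpha6beta1, ITGA6 was 3.08 higher on the log2 scale in Hke3 than in Hkh-2 and ITGB1 0.66 higher. For alpha6beta4, ITGA6 was higher and ITGB4 lower in Hke3 than in Hkh-2 (3.08 and -0.79, the latter called on 1 of 4 tested probe sets). For alphavbeta8, ITGAV was higher and ITGB8 lower in Hke3 than in Hkh-2 (0.50 and -1.84). These are RNA values, and protein or assembled receptor was not measured.

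The 2 recombined lines also differed from each other, which bears on how far a difference from HCT116 is shared by lines that carry the same targeted allele. In Hke3 minus Hkh-2, 8 of the 22 genes were called higher in Hke3 (36.4%) and 3 lower (13.6%), where 16.3% of all genes were higher and 23.5% lower. The genes higher in Hke3 were ITGA6, LAMB3 (1.38, adjusted p = 1.18e-06), LAMB2 (0.81, adjusted p = 0.000276), LAMC1 (0.78, adjusted p = 2.66e-05), ITGB1 (0.66, adjusted p = 4.54e-05), ITGB5 (0.51, adjusted p = 0.0021), ITGA3 (0.51, adjusted p = 0.0257) and ITGAV (0.50, adjusted p = 0.00244). Those lower in Hke3 were ITGB8 (-1.84, adjusted p = 1.71e-06), LAMB1 (-1.09, adjusted p = 6.75e-06) and ITGB4 (-0.79, adjusted p = 0.0113). Among the 11 genes not called were the 3 higher in HCT116 than in both lines, LAMA2 (0.26, adjusted p = 0.119), LAMA5 (-0.05, adjusted p = 0.73) and LAMC3 (-0.14, adjusted p = 0.503). The ITGA3 call was lost without Hke3 replicate 3 (0.31, adjusted p = 0.0769) and the ITGB4 call without Hke3 replicate 1 (-0.68, adjusted p = 0.0513), with further arrays given under the dependence on processing. Without Hke3 replicate 3, 5 genes instead of 3 were called lower in Hke3, beside 3871 of all 12868 genes instead of 3018 of 12852. With vehicle replicate 2 left out as well, 8 were called higher and 7 lower, beside 2946 and 4397 of all 12854 genes.

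Several of these genes have more than 1 probe set, which gives a check on a gene's value within the same RNA. In a fit over all 23516 probe sets that name a single gene and reach 6, 38 belonged to the list, and 22 of them (57.9%) were called in either direction between HCT116 and Hke3, 23 (60.5%) between HCT116 and Hkh-2 and 19 (50%) between Hke3 and Hkh-2. Over all these probe sets, 46.5%, 36.8% and 37.6% were called in the same 3 comparisons. Of the 10 genes with at least 2 tested probe sets, 5, 5 and 4 had every probe set called in 1 direction, and 0 had probe sets called in opposite directions. The other ITGA6 probe set had means of 8.47 in the doxycycline arrays, 8.49 in the vehicle arrays, 8.89 in Hke3 and 5.63 in Hkh-2, the last near background, and was called lower in HCT116 against Hke3 (adjusted p = 0.0334) and higher against Hkh-2. The other LAMB1 probe set gave -0.57 against Hke3 and -1.17 against Hkh-2, the same directions with smaller differences. The 3 LAMA2 probe sets gave 0.62 to 0.69 against Hkh-2, all called, and 0.29 to 0.49 against Hke3, 2 of them called. The LAMA2 probe set not called against Hke3 (0.29, adjusted p = 0.052) was called in Hke3 minus Hkh-2 (0.38, adjusted p = 0.0186), unlike the other LAMA2 probe sets. The 4 ITGB4 probe sets gave 0.29 to 1.22 against Hke3, all called, and 0.17 to 0.73 against Hkh-2, 2 of them called. In Hke3 minus Hkh-2 they gave -0.79 to -0.12, with 1 called. Of the 2 LAMC1 probe sets, 1 was called in that comparison (0.78), and the other gave 0.16 (adjusted p = 0.107). Of the 3 ITGB5 probe sets, 2 were called there, with values of 0.17 to 0.75. For ITGB8, the 2 further probe sets were near background in HCT116 and Hke3 and had means of 8.22 and 6.59 in Hkh-2, and both were called lower in HCT116 than in Hkh-2. Against Hke3, 1 of these 2 was called lower (-0.73, adjusted p = 0.00161) and the other was not called (-0.20, adjusted p = 0.244). A further ITGA2 probe set was called higher in HCT116 against Hke3 (0.39, adjusted p = 0.00749) and Hkh-2 (0.32, adjusted p = 0.0248), where the brighter one was called against neither. ITGB1 against Hkh-2 differed between its probe sets, with -0.17 and 0.21 on 2 probe sets that were not called and 0.35 on another that was (adjusted p = 0.0136), while its 3 probe sets gave -0.83, -0.78 and -0.54 against Hke3, all called.

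**Figure D4:**
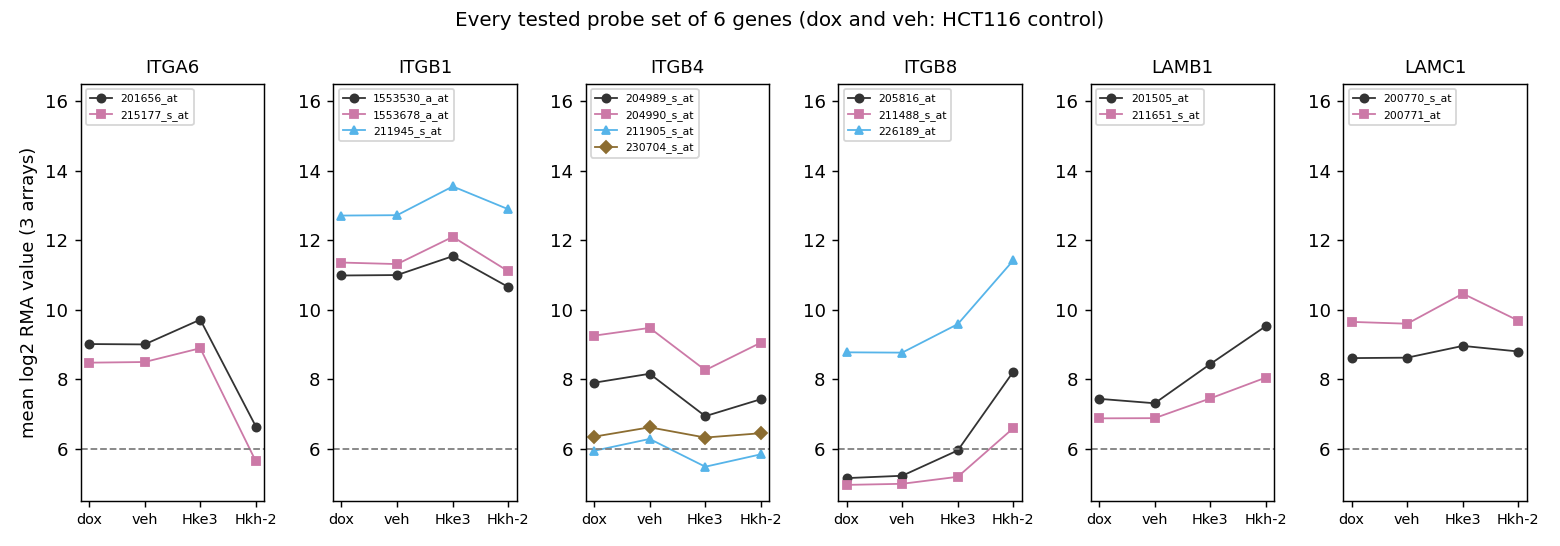
Mean log2 RMA value of 3 arrays (vertical axis) in each group (dox and veh stand for the HCT116 control cells) for every tested probe set (lines) of ITGA6, ITGB1, ITGB4, ITGB8, LAMB1 and LAMC1, with a dashed line at 6. Probe sets of 1 gene lie at different heights because their probes differ, and both LAMB1 lines rise towards Hkh-2 while both ITGA6 lines drop there.

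Genes that work with integrins and laminins were read from a list of 54 cytoplasmic adaptors, hemidesmosome and tetraspanin genes, other laminin receptors and other matrix ligands, of which 48 were measured and 41 tested. Against Hke3, 10 were higher in HCT116 (24.4%) and 13 lower (31.7%), beside 24.6% and 23.2% of all genes. Against Hkh-2, 4 were higher (9.76%) and 10 lower (24.4%), beside 14.3% and 21.7% of all genes. In Hke3 minus Hkh-2, 12 were higher (29.3%) and 6 lower (14.6%), beside 16.3% and 23.5% of all genes, and 0 were called between doxycycline and vehicle. TNS3 and TNS4, tensins that bind the tails of beta subunits, went in opposite directions. TNS4 was higher in HCT116 (1.25 against Hke3 and 0.96 against Hkh-2) and TNS3 lower (-2.97 and -2.29). PLEC, which encodes the plectin that joins ITGB4 to keratin, was higher in HCT116 than in Hke3 by 0.95 (adjusted p = 0.00387), as ITGB4 was, and was not called against Hkh-2 (0.32, adjusted p = 0.295). TLN1, the talin that activates integrins, had log2 values of 7.12, 8.12 and 7.10 in the vehicle arrays, with replicate 2 above the others. Its difference from Hke3 was 0.74 (adjusted p = 0.017), but 0.41 without that array (adjusted p = 0.0441), 0.57 without Hke3 replicate 3 (adjusted p = 0.0586) and 0.23 without both (adjusted p = 0.0719).

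Among the matrix ligands of that list, FN1, the fibronectin bound by alphav and alpha5 integrins, had means of 7.88 in the vehicle arrays, 9.20 in Hke3 and 10.81 in Hkh-2, and was lower in HCT116 than in both lines (-1.32 on the log2 scale against Hke3, adjusted p = 5.91e-07, and -2.92 against Hkh-2, adjusted p = 3.18e-10). The order of its means, with HCT116 lowest and Hkh-2 highest, was that of ITGB8 and LAMB1. NTN4, a netrin that binds laminin gamma chains, was near background in HCT116, which put it at least 1.92 lower on the log2 scale than in Hke3 (adjusted p = 2.86e-08) and at least 2.60 lower than in Hkh-2 (adjusted p = 3.44e-09), taking 6 as the limit. SPP1, the RGD ligand osteopontin, was near background in HCT116 and Hkh-2, and at least 2.40 lower in HCT116 than in Hke3 (adjusted p = 1.51e-08). COL4A5, a collagen IV chain, was higher in HCT116 than in Hkh-2 by 1.18 (adjusted p = 6.26e-07). AGRN, the basement membrane proteoglycan agrin, gave 0.43 in that comparison (adjusted p = 0.0247), a call lost without vehicle replicate 2 (0.27, adjusted p = 0.087) or without any 1 of the Hkh-2 arrays (0.41 to 0.45, adjusted p between 0.0537 and 0.078). Of 6 fibroblast markers, 3 reached a group mean of 6, and their mean level over the list was between 5.37 and 5.58 in the doxycycline arrays, between 5.37 and 5.42 in the vehicle arrays, between 5.31 and 5.46 in Hke3 and between 5.73 and 5.86 in Hkh-2. COL3A1 had its highest mean in Hkh-2 (4.45 in the doxycycline arrays, 4.49 in the vehicle arrays, 4.45 in Hke3 and 6.73 in Hkh-2). COL1A1 had means of 8.43, 8.33, 8.19 and 8.19 in the same order and DCN means of 6.01, 6.15, 6.21 and 6.21, while COL1A2, LUM and PDGFRB were under 6 in every group. Of 4 endothelial markers, 2 reached 6, PECAM1 with means of 6.81, 6.86, 6.62 and 6.56 and VWF with means of 6.33, 6.35, 5.34 and 5.32, while CDH5 and KDR were under 6 in every group. The mean level over the endothelial list was between 5.22 and 5.25 in the doxycycline arrays, between 5.09 and 5.23 in the vehicle arrays, between 4.81 and 4.95 in Hke3 and between 4.74 and 4.97 in Hkh-2. The part of these markers in the values of ITGB8, LAMB1 and FN1 was not tested.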

How the data were processed

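RNA of HCT116 control cells with doxycycline or vehicle, Hke3 and Hkh-2 was hybridised to 12 Affymetrix arrays. The authors deposited the log2 values of each probe set after RMA, per the submitters' processing notes. The version, chip definition and arrays normalized together are not given in the sources used here. The targeted gene itself is not reported here.

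Probe sets of the deposited table took their names from the platform annotation (41097 with a single gene symbol, 41043 of them matched to RefSeq genes of GRCh38.p14). A gene took its brightest probe set and was kept at a group mean of 6 or more, a limit the study used elsewhere. The fit was made in limma 3.58.1 under R 4.3.3, over 12 arrays and 4 group means, with Benjamini-Hochberg adjustment over 12852 genes and a threshold of 0.05. The scripts were tested on simulated data, and 3 arrays per group limit the precision.

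The genes and lists were chosen with earlier results of these data known. All tested genes of the list were to be named with their means, those past 1 on the log2 scale array by array, and up to 3 partner genes in each direction and comparison. FN1 against Hke3 and the cell type markers were named after their values were seen. Between arrays with the same replicate number, deviations from group means correlated at r = 0.228, 0.212 and 0.453 for doxycycline with vehicle. The values were 0.0762, 0.134 and 0.104 for doxycycline with Hkh-2, and -0.0459, 0.422 and 0.337 for vehicle with Hkh-2. With Hke3 they were negative for doxycycline and of mixed sign for vehicle and Hkh-2. Of the 12 arrays, 6 had their best match in another group at their own number, so the numbers do not settle a pairing. Alternatives were the mean over probe sets, leaving out less specific probe sets, other filters and normalizations, other fits, the replicate block, pooled HCT116 arrays, a size threshold and leaving out arrays.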

Additional observations from a re-analysis of the deposited data

Results flagged for a closer look

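The recombined lines carry the same targeted allele, and 11 of the 22 tested genes differed between them by the limma test of Hke3 minus Hkh-2. Of the 22 genes, 36.4% were called higher and 13.6% lower in Hke3, beside 16.3% and 23.5% of all genes tested. Such a call marks a difference between the effects of 2 lines under the same contrast with HCT116. ITGA6 (3.08), LAMB3 (1.38), LAMB2 (0.81), LAMC1 (0.78), ITGB1 (0.66), ITGB5 (0.51), ITGA3 (0.51) and ITGAV (0.50) were higher in Hke3 on the log2 scale. ITGB8 (-1.84), LAMB1 (-1.09) and ITGB4 (-0.79) were lower in Hke3. The call of ITGB4 was made on 1 of its 4 tested probe sets, and that of LAMC1 on 1 of 2. For ITGA6 the effects had opposite signs, with HCT116 lower than Hke3 and higher than Hkh-2. For ITGAV, ITGB8 and LAMB1 the effects had the same sign and different sizes. Each line is 1 clone, so the line and the recombined allele cannot be told apart in these differences.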

How the results depend on the processing

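No called value of a listed gene changed direction, while ITGB1 against Hkh-2 (-0.17, and 0.21 without probe sets ending in _s_at or _x_at) and ITGB5 against Hke3 (-0.13, and 0.20) were among those not called that did. The next tally includes doxycycline against vehicle, where no gene was called under any alternative. A gene that an alternative left untested has no value in it. Of the single-gene values of listed genes under all alternatives, 1894 stayed on their side of the threshold, 29 gained a call and 7 lost one, all 7 on leaving out 1 array: ITGA3 between the recombined lines without Hke3 replicate 3 (0.31, adjusted p = 0.0769), Hkh-2 replicate 1 (0.47, 0.0825) or replicate 3 (0.45, 0.0877), ITGB4 between them without Hke3 replicate 1 (-0.68, 0.0513) or replicate 2 (-0.68, 0.052), ITGB5 against Hkh-2 without vehicle replicate 3 (0.30, 0.0599) and LAMA2 against Hke3 without vehicle replicate 1 (0.27, 0.0503). Called values that moved by over 1.5 times and kept their call were, with all probe sets of a gene averaged, ITGB8 (-0.32 against Hke3, -1.61 against Hkh-2), LAMC3 (0.47 and 0.41), ITGB1 (-0.34) and ITGB4 (0.74) against Hke3, and ITGB4 (-0.39) and LAMC1 (0.47) between the recombined lines, and, without probe sets ending in _s_at or _x_at, ITGB5 (0.96) against Hkh-2 and ITGB1 (0.99) between the recombined lines, and, without both arrays that stood apart (vehicle replicate 2 and Hke3 replicate 3), ITGA3 (0.31, adjusted p = 0.0189) between them.

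Counts of listed genes moved as follows. Without probe sets ending in _s_at or _x_at, 1 instead of 4 was higher in HCT116 than in Hke3 and 4 instead of 7 higher than in Hkh-2. In that setting LAMA5 and LAMB2 had no probe set left, and those left for ITGB4 and LAMC3 were under 6. These genes were therefore not tested there, and their calls were not put to this check. Over all 9888 genes tested then, 2285 were higher and 2293 lower against Hke3, and 1435 and 2017 against Hkh-2. Without both arrays that stood apart, 8 instead of 4 were higher than in Hke3, and 7 instead of 3 lower in Hke3 than in Hkh-2. Where a change past 1 was required, and likewise with group means under 6 counted as 6, the comparison with Hke3 left 1 higher and 2 lower in HCT116, that with Hkh-2 left 2 higher and 2 lower, and Hke3 had 2 higher against Hkh-2. Leaving out 1 array gave 3 to 6 higher and 7 to 8 lower in the comparison with Hke3, 6 to 8 higher and 4 lower in that with Hkh-2, and for Hke3 7 to 9 higher and 2 to 5 lower against Hkh-2 (5 without Hke3 replicate 3).

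Counts of partner genes moved more. Without _s_at and _x_at probe sets, HCT116 had 6 higher and 8 lower in the comparison with Hke3, and 1 higher and 5 lower in that with Hkh-2. With only the compared groups in the fit, 5 were higher against Hke3. Without both arrays that stood apart, 19 were lower than in Hkh-2, and 16 lower in Hke3 than in Hkh-2. Where a change past 1 was required, and likewise with group means under 6 counted as 6, HCT116 had 1 higher in the comparison with Hke3, 1 higher and 4 lower in that with Hkh-2, and Hke3 had 4 higher and 1 lower against Hkh-2. Leaving out 1 array gave 7 to 10 higher and 13 to 14 lower in the comparison with Hke3, 3 to 7 higher and 5 to 15 lower in that with Hkh-2, and for Hke3 11 to 13 higher and 4 to 13 lower against Hkh-2 (13 without Hke3 replicate 3). Against Hkh-2, the count higher was 7 without vehicle replicate 1 or Hke3 replicate 3, and the count lower was 6 without vehicle replicate 1 and 5 without Hkh-2 replicate 2. Of the partner genes named, put through the same alternatives after seeing the data, TLN1 against Hke3 turned to -0.21 without _s_at and _x_at probe sets (adjusted p = 0.219) and lost its call with probe sets averaged (0.14) or only the compared groups in the fit (0.74, adjusted p = 0.0702). AGRN against Hkh-2 lost its call with probe sets averaged (0.25), without _s_at and _x_at probe sets (0.10) and with vehicle and doxycycline arrays pooled (0.32, adjusted p = 0.0505). With probe sets averaged, TNS3 (-1.42 against Hke3, -1.04 against Hkh-2), FN1 (-0.72 and -1.92) and COL4A5 (0.75 against Hkh-2) kept their calls.

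With the replicate block, 0 of the listed genes were called between doxycycline and vehicle, also with the 12 arrays reduced to these 2 groups, a fit added after seeing the data, and the block changed no other call of a listed gene. Genes under 6 have no fold change here, and 3 arrays per group limit what could be called.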
